A study of Rattus norvegicus with 15 samples.

Results

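The genes described here are 10 genes of TGF-beta and bone morphogenetic protein (BMP) signalling: the ligands Tgfb1, Tgfb2, Tgfb3, Bmp4 and Bmp7, the receptors Tgfbr1, Tgfbr2 and Tgfbr3, the latency protein Ltbp1 and the inhibitory Smad7. Every probe set of the rat array whose single gene symbol in the probe annotation is one of these names was taken. This gave 14 probe sets for 9 of the 10 genes, of 31042 probe sets tested. For Tgfbr2 no probe set is listed in that annotation, so it was not analysed here.

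The acute group (aTX) was 5 kidneys of male Lewis Brown Norway (LBN) rats that had been placed in male Lewis (LEW) recipients. In the syngeneic group (sTX), 5 LBN kidneys had been placed in LBN recipients. The control group (ctr) was 5 native, untreated LBN kidneys, and by the series description they were the remaining kidneys of donor rats. Controls and grafts may therefore come in part from the same animals, and the labels do not say which. All rats were labelled as 10 to 12 weeks old, recipients of both graft groups lost both of their own kidneys at surgery, and grafts were removed on day 4, so that both graft groups carried surgery, ischemia and a single kidney while only aTX crossed a strain barrier. The strains given here follow the methods and the series description. Source names of single samples differ from them, in that sTX kidneys are called Lewis grafts in Lewis rats, and 1 treatment field calls sTX 4 and sTX 5 allogeneic although their titles place them in sTX. Both were kept in sTX, and results were repeated without them.

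TGF-beta ligands are secreted bound to a latency peptide, which binding proteins such as Ltbp1 tether to the extracellular matrix until integrins or proteases free the cytokine. The free ligand assembles type I and type II receptor kinases, which phosphorylate the receptor-regulated Smads, and Smad7 is the inhibitory Smad that pathway activity itself induces. BMP ligands use related receptors and other receptor-regulated Smads. In the kidney, TGF-beta 1 is best known for driving matrix production and for restraining immune cells, whereas BMP7 is made by tubular cells and podocytes and opposes many TGF-beta effects.

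Expression was measured on Affymetrix Rat Genome 230 2.0 arrays, 1 per kidney, and values are MAS5 signals, a linear brightness per probe set with a trimmed mean of 100 on every array. Signals of different probe sets are not comparable with each other, and where a member has several they are told apart below as the brighter and the dimmer, by their mean signal over the 15 arrays. For the other pathway genes named by the largest called change, values are those of the probe set with that change, unless another is stated. Fold changes below are ratios of geometric means, and adjusted p-values come from limma over all 31042 probe sets, called at 0.05. In the gene lists below, a gene counts as higher or lower if at least 1 of its probe sets was called so and none the other way. Nothing in the labels says more of the replicates than that they are separate kidneys, so the p-values measure the spread between these kidneys. By the clock time of hybridization in the fluidics records, morning or afternoon, the arrays fell into 2 blocks. They are named wash runs here, and the date was not used in the split. The morning block held 8 arrays, the 5 ctr and aTX 2, 3 and 4. The afternoon block held 7 arrays, the 5 sTX and aTX 1 and 5. No run held both sTX and ctr, so for that comparison there is no within-run value and a block for the run rests on the aTX arrays alone. The ratio of 3' to 5' signal of Gapdh, which rises as RNA degrades, was 1.006 to 1.07 in aTX, 1.066 to 1.128 in sTX and 1.126 to 1.246 in ctr, and that of beta-actin was 1.14 to 1.29 in aTX, 1.447 to 1.609 in sTX and 1.539 to 1.976 in ctr (exact permutation test, two-sided, adjusted p = 0.0159 for each pair of groups and each gene). The part of RNA quality in the results was not tested.

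Of the 14 probe sets, 1 was higher and 8 were lower in aTX than in ctr, where 20.2% of all probe sets were called higher and 22.2% lower. Their median log2 change was −0.73, beside −0.07 over all probe sets. The higher probe set was that of Tgfb1, and the lower ones were those of Bmp4, Bmp7, Ltbp1, all 3 of Smad7 and 1 each of Tgfbr1 and Tgfbr3. For 9 of the 14 the 5 aTX arrays did not overlap the 5 ctr arrays, which held for 33.2% of all probe sets. Blocked for wash run 1 was higher and 9 were lower (18% and 20.4% of all), and within 1 run 1 and 8 (17.1% and 19.4% of all). The methods' t-test at an unadjusted p below 0.001 gave 1 and 5 (12.5% and 12.3% of all).

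**Figure D1:**
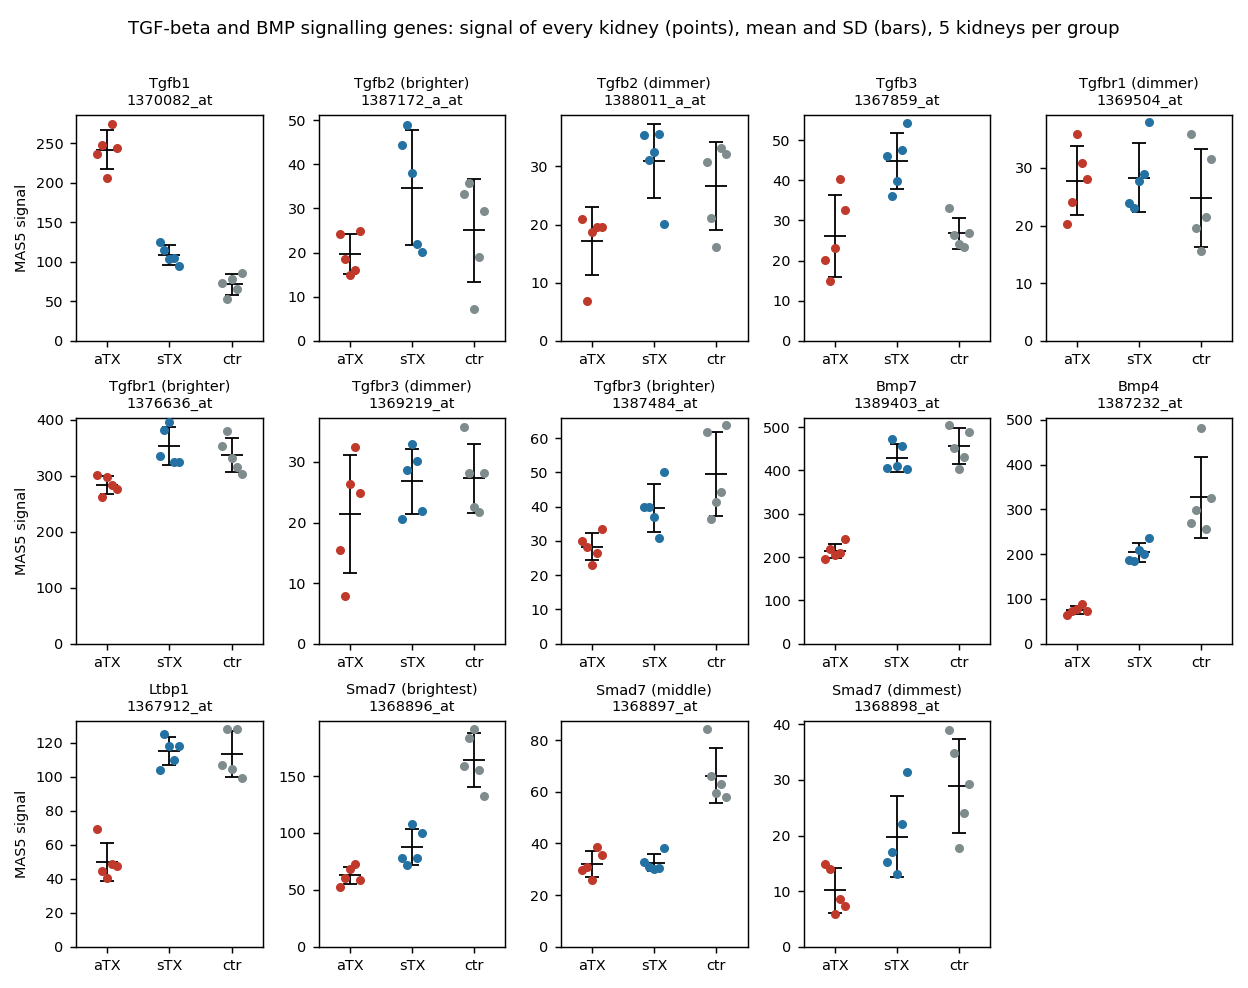
MAS5 signal (vertical axes, linear from 0) of each of the 14 probe sets in every kidney, with aTX left, sTX in the middle and ctr right; points are kidneys and bars are the mean and SD of 5 kidneys. Tgfb1 reaches 205.8 to 274.1 in aTX and does not exceed 125.5 elsewhere, whereas Bmp7, Bmp4 and Ltbp1 are lowest in aTX with no overlap with the other groups.

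Tgfb1, the isoform made by most leukocytes and by injured tubules, was the single member that rose in both graft groups over ctr and again between them. Its signals were 236.6, 247.9, 205.8, 274.1 and 243.6 in aTX 1 to 5, 125.5, 115.4, 103.0, 104.1 and 94.1 in sTX 1 to 5, and 73.2, 52.6, 78.5, 65.9 and 86.3 in ctr 1 to 5. The 3 groups did not overlap, with aTX highest and ctr lowest. The means were 241.6 ± 24.5 in aTX, 108.4 ± 12.2 in sTX and 71.3 ± 12.8 in ctr (SD, n = 5 each). This was a 3.42-fold higher signal in aTX than in ctr (log2 change 1.77 ± 0.12 SE, limma adjusted p = 1.48e-10) and 2.23-fold higher than in sTX (log2 change 1.16 ± 0.12 SE, adjusted p = 1.44e-07). Within 1 wash run the log2 changes were 1.78 over ctr and 1.15 over sTX. The sTX signal was 1.53-fold higher than in ctr (log2 change 0.62 ± 0.12 SE, adjusted p = 0.00087); blocked for wash run, the change was again 0.62, with an adjusted p of 0.137.

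Bulk kidney RNA cannot tell apart fewer cells of a type from less RNA per cell, nor more of either. Markers of leukocytes moved in the same direction as Tgfb1: 11 of 12 marker genes were higher in aTX than in ctr, 7 of 12 in sTX than in ctr, and 12 of 12 in aTX than in sTX. Their summed signal was 6971 to 8600 in aTX, 945.7 to 1505 in sTX and 649.1 to 779.8 in ctr. In ctr the lowest signals of the T cell and myeloid markers Cd3e, Cd8a and Itgam were 0.7, 0.8 and 0.8, close to 0. The part of these cells in the Tgfb1 result was not tested.

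Tgfb2 and Tgfb3, the isoforms better known from development, were measured at low signals and were not called higher in aTX than in any group. For Tgfb3 the 5 signals were 20.1, 14.8, 23.2, 40.3 and 32.7 in aTX, 46.1, 36.1, 39.9, 47.5 and 54.2 in sTX, and 33.1, 26.4, 24.0, 23.4 and 26.8 in ctr. All 5 sTX kidneys lay above all 5 ctr kidneys, while aTX overlapped both groups. The sTX signal was 1.67-fold higher than in ctr (log2 change 0.74 ± 0.22 SE, limma adjusted p = 0.0266), and the aTX signal 1.80-fold lower than in sTX (log2 change −0.85 ± 0.22 SE, adjusted p = 0.00511), with a log2 change of −0.11 between aTX and ctr (adjusted p = 0.754). The call for sTX over ctr was lost without any 1 of sTX 1, sTX 4, sTX 5, ctr 3 or ctr 4 (adjusted p = 0.0564, 0.0558, 0.0661, 0.0509 and 0.0592 in that order) and without both sTX 4 and sTX 5 (0.151). It was also lost under median centring (0.0862), quantile scaling (0.0689) and a block for the wash run (0.489). For aTX against sTX the adjusted p was 0.0544 without sTX 4 and sTX 5, 0.0629 with the block and 0.027 within 1 run.

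The 2 probe sets of Tgfb2 gave a single call between them. The brighter had signals of 15 to 24.8 in aTX, 20.1 to 49.0 in sTX and 7.3 to 35.8 in ctr, all overlapping. The dimmer had 6.8 to 21.0 in aTX, 20.1 to 35.5 in sTX and 16.1 to 33.1 in ctr, and its signal was 1.90-fold lower in aTX than in sTX (log2 change −0.93 ± 0.30 SE, limma adjusted p = 0.0192). Without aTX 2, which had the value of 6.8, the log2 change was −0.62 (adjusted p = 0.0519), and within 1 wash run it was −0.58 (0.145). Against ctr the log2 change of the same probe set was −0.69 (adjusted p = 0.0733) and −0.86 without ctr 3 (0.0278), and without ctr 3 the brighter probe set passed in aTX against sTX as well (log2 change −0.75, adjusted p = 0.0322).

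Ltbp1, which binds the latent TGF-beta complex and anchors it to matrix, was lower in aTX than in both other groups and did not differ between sTX and ctr by more than the spread between kidneys. The signals were 69.1, 44.3, 40.5, 48.8 and 47.4 in aTX, 104.2, 125.4, 118.3, 110.1 and 118.2 in sTX, and 106.9, 127.9, 104.5, 128.1 and 99.3 in ctr. The highest aTX kidney, aTX 1, was below the lowest kidney of sTX and ctr. Against ctr the aTX signal was 2.29-fold lower (log2 change −1.20 ± 0.12 SE, limma adjusted p = 9.3e-08; −1.34 within 1 wash run), and against sTX 2.34-fold lower (log2 change −1.23 ± 0.12 SE, adjusted p = 1.29e-07; −1.01 within 1 wash run). Between sTX and ctr the log2 change was 0.03, with a 95% confidence interval of −0.23 to 0.29. Blocked for wash run, that change was −0.34 (adjusted p = 0.451).

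Bmp4 and Bmp7, the BMP ligands among the members, both fell in aTX. Bmp7 signals were 196.5, 217.6, 205.9, 209.9 and 241.0 in aTX, 406.7, 472.2, 409.2, 456.7 and 402.3 in sTX, and 504.8, 451.4, 403.4, 430.1 and 489.5 in ctr. Each aTX kidney lay well below every other kidney, and sTX and ctr overlapped. The aTX signal was 2.13-fold lower than in ctr (log2 change −1.09 ± 0.08 SE, limma adjusted p = 3.14e-10) and 2.0-fold lower than in sTX (log2 change −1.0 ± 0.08 SE, adjusted p = 2.31e-09), with −1.11 and −0.98 within 1 wash run. Between sTX and ctr the log2 change was −0.08, with a 95% confidence interval of −0.24 to 0.07 and an adjusted p of 0.522; after median centring it was −0.28 (adjusted p = 0.013).

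Bmp4, which acts in ureteric and stromal patterning during kidney development, had the largest fall of the 14 probe sets. Its signals were 64.7, 73.9, 76.8, 89.6 and 73.7 in aTX, 187.8, 185.9, 208.3, 201.3 and 236.5 in sTX, and 270.6, 298.6, 482.5, 256.9 and 326.2 in ctr. The groups did not overlap and ran from aTX, the lowest, over sTX to ctr. The aTX signal was 4.23-fold lower than in ctr (log2 change −2.08 ± 0.13 SE, limma adjusted p = 9.19e-11; −2.0 within 1 wash run) and 2.7-fold lower than in sTX (log2 change −1.43 ± 0.13 SE, adjusted p = 4.33e-08; −1.56 within 1 wash run). The sTX signal was 1.57-fold lower than in ctr (log2 change −0.65 ± 0.13 SE, adjusted p = 0.00174) and, blocked for wash run, the change was −0.44 (adjusted p = 0.394).

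Most markers of kidney cells fell beside the BMP ligands and Ltbp1 in aTX. Of the proximal tubule markers 7 of 8 genes were lower in aTX than in ctr, of the distal nephron and collecting duct markers 8 of 9, of the endothelial markers 6 of 7 measured and of the podocyte markers 4 of 5 measured. The fifth podocyte marker, Ptpro, was higher in aTX than in ctr (log2 change 0.53, limma adjusted p = 6.24e-05) and than in sTX (0.75, 1.71e-06). The summed proximal tubule signal was 9468 to 12300 in aTX, 17490 to 20260 in sTX and 18660 to 24620 in ctr. That of the distal nephron and collecting duct was 5186 to 6888 in aTX, 10110 to 13450 in sTX and 10890 to 12400 in ctr, and that of the podocytes 694.4 to 803 in aTX, 879 to 1124 in sTX and 1115 to 1216 in ctr. The part of these cells in the fall of the members was not tested.

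Both measured receptors had 1 probe set lower in aTX than in ctr and another that was not called. Tgfbr1, the type I receptor kinase, had signals on its brighter probe set of 301.8, 262.2, 297.7, 283.5 and 277.0 in aTX, 335.5, 382.9, 396.2, 325.5 and 325.3 in sTX, and 353.2, 380.0, 332.6, 315.4 and 303.3 in ctr. Every aTX kidney was below every other kidney, by a small margin. The signal was 1.18-fold lower than in ctr (log2 change −0.24 ± 0.08 SE, limma adjusted p = 0.0147) and 1.24-fold lower than in sTX (log2 change −0.31 ± 0.08 SE, adjusted p = 0.00304). Without ctr 2 the first of these had an adjusted p of 0.0505, and the second was not called after median centring (0.0937) or within 1 wash run (0.0639). The dimmer probe set had a log2 change of 0.21 between aTX and ctr (adjusted p = 0.534), at signals of 20.3 to 35.8 in aTX, 23.0 to 38 in sTX and 15.6 to 35.8 in ctr.

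Tgfbr3 (betaglycan), the co-receptor that presents TGF-beta to the signalling receptors, had signals on its brighter probe set of 30.1, 28.1, 23.0, 26.6 and 33.5 in aTX, 40, 40, 37.0, 30.8 and 50.2 in sTX, and 61.7, 36.5, 41.4, 44.2 and 63.7 in ctr. The aTX kidneys were all below the ctr kidneys and overlapped sTX. The signal was 1.72-fold lower in aTX than in ctr (log2 change −0.78 ± 0.18 SE, limma adjusted p = 0.00108; −0.90 within 1 wash run). The log2 change of −0.48 against sTX (adjusted p = 0.0403) was not called without any 1 of aTX 2, aTX 3, aTX 4, sTX 1, sTX 2, sTX 3 or sTX 5 (adjusted p between 0.0537 and 0.116), and within 1 wash run it was −0.30 (0.357). Between sTX and ctr the log2 change was −0.30 (adjusted p = 0.279), and −0.50 after median centring (0.0396). The dimmer probe set had 7.9 to 32.5 in aTX, 20.6 to 33.0 in sTX and 21.8 to 35.8 in ctr, and no comparison was called.

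Smad7, the inhibitory Smad that targets activated type I receptors for degradation, was lower in aTX than in ctr on all 3 of its probe sets, and on 2 of 3 in sTX. On the brightest the signals were 52.8, 60.8, 67.9, 72.7 and 59.0 in aTX, 77.6, 72.1, 107.9, 78.3 and 100.4 in sTX, and 159.2, 183.4, 191.2, 155.1 and 132.5 in ctr. The ctr kidneys stood apart from both graft groups, which met at aTX 4 and sTX 2. Against ctr the signal was 2.62-fold lower in aTX (log2 change −1.39 ± 0.13 SE, limma adjusted p = 1.7e-08; −1.28 within 1 wash run) and 1.89-fold lower in sTX (log2 change −0.92 ± 0.13 SE, adjusted p = 3.33e-05; −0.66 and 0.121 blocked for wash run). Between aTX and sTX the log2 change was −0.47 (adjusted p = 0.00614).

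The middle Smad7 probe set was not called between aTX and sTX, whereas the dimmest, like the brightest, was lower in aTX. The middle probe set had 29.7, 30.8, 26.0, 38.7 and 35.6 in aTX, 33.0, 31.0, 30.2, 30.4 and 38.2 in sTX, and 84.4, 66.0, 59.5, 63.0 and 58.2 in ctr. Both graft groups lay at one level below all ctr kidneys: the log2 changes against ctr were −1.04 ± 0.14 SE in aTX (limma adjusted p = 4.19e-06) and −1.02 ± 0.14 SE in sTX (adjusted p = 3.98e-05; −1.07 and 0.0277 blocked for wash run), and that between aTX and sTX was −0.03, with a 95% confidence interval of −0.33 to 0.27. The dimmest probe set, at 5.9 to 14.9 in aTX, 13.1 to 31.4 in sTX and 17.7 to 38.9 in ctr, was lower in aTX than in ctr (log2 change −1.56 ± 0.32 SE, adjusted p = 0.000377). Its log2 change of −0.99 in aTX against sTX (adjusted p = 0.0182) was not called without aTX 3 (0.0548), without sTX 5 (0.063) or within 1 wash run (−0.85, 0.178).

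The 250 bases before the annotated start of Tgfb1, which rose, and Smad7, which fell, are shown because Smad7 is a known direct target of the Smads and the pair moved in opposite directions. Sequences are from RefSeq on rat build GRCr8, 5' to 3' on the strand of the gene, with the GC-rich Smad motif GGCGCC in capitals.
Tgfb1, chr1:90324062-90324311, plus strand: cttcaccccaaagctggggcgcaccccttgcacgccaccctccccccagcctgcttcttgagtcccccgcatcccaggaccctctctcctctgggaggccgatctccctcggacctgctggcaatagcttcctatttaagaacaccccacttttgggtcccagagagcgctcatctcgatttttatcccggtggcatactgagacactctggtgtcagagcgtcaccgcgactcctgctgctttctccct
Smad7, chr18:71263258-71263507, plus strand: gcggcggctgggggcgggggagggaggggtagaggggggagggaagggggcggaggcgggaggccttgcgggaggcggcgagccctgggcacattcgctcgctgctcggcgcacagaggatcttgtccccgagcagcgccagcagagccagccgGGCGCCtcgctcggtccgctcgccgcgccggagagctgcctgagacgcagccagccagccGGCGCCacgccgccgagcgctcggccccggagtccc
Promoter windows of this length were matched for 9 of the 10 genes, all but Bmp7, and were searched on both strands for 4 motifs: the Smad palindrome GTCTAGAC, GGCGCC, the AP-1 motif TGAGTCA or TGACTCA, and the GC box GGGCGG, none of which shares a whole match with another. GGCGCC was in 3 of the 9 windows, those of Tgfbr1, Tgfbr3 and Smad7, and in 8.69% of 33469 promoters. In Smad7 it stood at −96 to −91 and −36 to −31 from the start. The GC box was in 5 of the 9 windows and in 30.5% of all promoters, whereas the Smad palindrome and the AP-1 motif were in 0 of the 9, with 0.173% and 4.05% of all promoters holding them. A match describes letters in this window only. The first listed promoter of each gene was used. Those of Tgfb1, Tgfbr3 and Smad7 end directly before the annotated gene span. The windows of Tgfb2, Tgfb3, Tgfbr2 and Bmp4 lie inside the gene span, and those of Tgfbr1 and Ltbp1 overlap its start.

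Between the graft groups, 1 of the 14 probe sets was higher and 9 were lower in aTX than in sTX, where 13.9% of all probe sets were called higher and 22.1% lower. The median log2 change was −0.61, beside −0.18 over all probe sets, and the arrays of the groups did not overlap for 5 of the 14 (29.1% of all probe sets): Tgfb1, the brighter Tgfbr1, Bmp7, Bmp4 and Ltbp1. Blocked for wash run 1 of the 14 was higher and 5 were lower (11.4% and 16.3% of all), and within 1 run the counts were likewise 1 and 5 (11.6% and 16.5% of all). By the methods' t-test they were 1 and 3 (9.14% and 11.1% of all). In sTX against ctr 2 were higher and 3 lower, beside 11.4% and 6.32% of all probe sets, with a median of 0.00 beside 0.09, and 5 of the 14 did not overlap (13.2% of all). Median centring of every array turned the median change of all probe sets in sTX against ctr to −0.11 and gave 1 member higher and 5 lower, and quantile scaling gave 1 higher and 3 lower. The shares of all probe sets called under these scalings were not counted, so these member counts have no share beside them. Blocked for wash run 1 member was called in sTX against ctr, the middle Smad7 probe set, which was lower (2.3% of all probe sets higher and 0.821% lower). By the methods' t-test 1 was higher and 2 were lower (4.28% and 2.31% of all). The aTX and sTX comparisons with ctr share the 5 control kidneys.

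**Figure D2:**
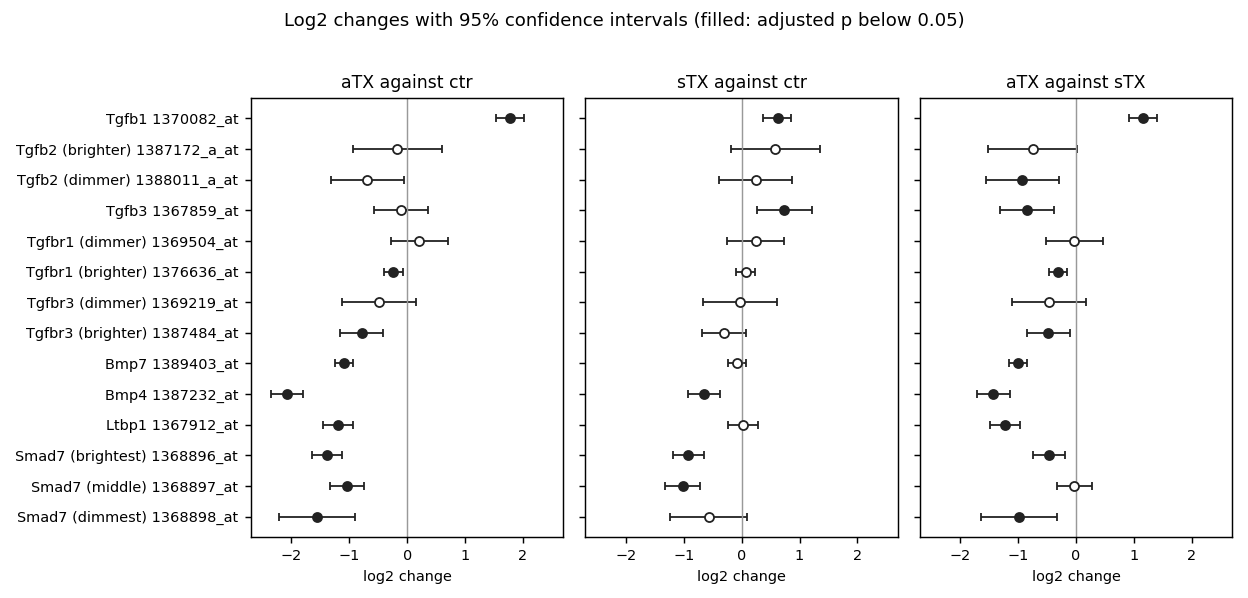
Log2 change (horizontal axis) of each of the 14 probe sets with its 95% confidence interval, for aTX against ctr (left), sTX against ctr (middle) and aTX against sTX (right); filled points have an adjusted p below 0.05. Tgfb1 lies right of 0 in all 3 panels, from 0.62 to 1.77, and Bmp4 left of 0 in all 3, from −0.65 to −2.08.

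Beyond the members, 98 further genes of the pathway with 154 probe sets were measured, grouped by role from general knowledge. In aTX against ctr 44 of the 154 were higher and 45 lower, beside 20.2% and 22.2% of all probe sets. The median log2 change was −0.07, equal to that of all probe sets. In sTX against ctr 41 were higher and 13 lower, beside 11.4% and 6.32% of all, with a median of 0.19 beside 0.09. After median centring 29 were higher and 25 lower there, and blocked for wash run 21 and 5 (2.3% and 0.821% of all). In aTX against sTX 17 were higher and 56 lower, beside 13.9% and 22.1% of all, with a median of −0.30 beside −0.18 (22 and 42 after median centring). For median centring the shares of all probe sets were not counted. No gene of these lists had probe sets called in opposite directions within a comparison.

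**Figure D3:**
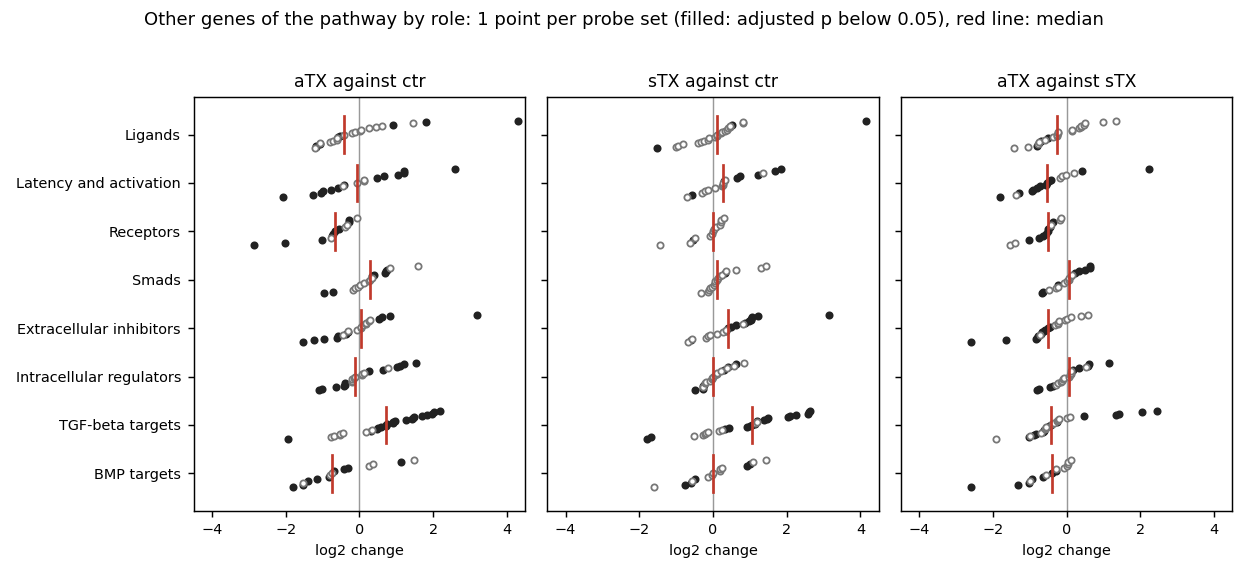
Log2 change (horizontal axes) of the 154 probe sets of other pathway genes, 1 point each and filled where the adjusted p is below 0.05, in rows by role; red lines are medians, with aTX against ctr left, sTX against ctr in the middle and aTX against sTX right. Most receptors lie left of 0 in aTX (median −0.67 against ctr), and most probe sets of the TGF-beta target list lie right of 0 against ctr in both graft groups (medians 0.72 and 1.07).

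Of the 10 other receptor genes measured, 7 were lower in aTX than in ctr and 3 did not pass, Acvrl1 (log2 change −0.07), Amhr2 (−0.40) and Bmpr2 (−0.35 and −0.78 on its 2 probe sets). Against sTX 7 were lower in aTX and 3 did not pass. Of their 13 probe sets 9 were lower in aTX than in ctr and 8 than in sTX, beside 22.2% and 22.1% of all. In sTX against ctr 1 of 3 probe sets of Acvr1 was the single call, lower by a log2 change of −0.55 (limma adjusted p = 0.007), and blocked for wash run its change was −0.71 (0.135). Endoglin (Eng), an endothelial co-receptor that is also in the endothelial marker list, had signals of 206.6, 184.4, 161.3, 168.1 and 192.7 in aTX, 300.7, 272.0, 281.6, 342.5 and 345.9 in sTX, and 285.3, 328.7, 285.3, 253.4 and 296.3 in ctr, 1.59-fold lower in aTX than in ctr (limma adjusted p = 2.84e-06). Acvr1, a type I receptor of BMP and activin ligands, was 1.67-fold lower in aTX than in ctr (adjusted p = 0.000124). Bmpr1a, a type I BMP receptor, was 1.43-fold lower in aTX than in sTX (adjusted p = 0.000204), and Bmpr2, the type II BMP receptor, had a log2 change of −0.56 there (adjusted p = 0.0118) and of −0.28 within 1 wash run (0.367). The summed endothelial marker signal was 977.6 to 1096 in aTX, 1811 to 2025 in sTX and 1962 to 2349 in ctr, and its part in the receptor result was not tested.

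Of the 7 other Smad genes, Smad1, Smad2, Smad3 and Smad4 were higher in aTX than in ctr, the inhibitory Smad6 was lower, and Smad5 and Smad9 did not pass. Most of their 17 probe sets were not called: 5 were higher and 2 lower, beside 20.2% and 22.2% of all probe sets. Smad1, which BMP receptors activate, averaged 339.8 ± 34.5 in aTX, 218.6 ± 12.4 in sTX and 203.0 ± 18.4 in ctr (SD, n = 5 each), 1.67-fold higher in aTX than in ctr (limma adjusted p = 1.7e-07). Smad2, which TGF-beta and activin receptors activate, averaged 224.6 ± 12.3 in aTX, 160.4 ± 12.6 in sTX and 136.6 ± 13.9 in ctr, 1.65-fold higher in aTX than in ctr (adjusted p = 2.9e-07), and Smad3 was 1.31-fold higher (0.000425). Smad6, the inhibitory Smad of the BMP branch, averaged 47.6 ± 9.95 in aTX, 75.8 ± 21.2 in sTX and 77.6 ± 2.26 in ctr, 1.66-fold lower in aTX than in ctr (adjusted p = 0.000901). Its aTX against sTX call was lost within 1 wash run (0.153).

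Among the proteins that store or free latent TGF-beta, 4 of 11 genes were higher and 5 lower in aTX than in ctr. These genes have 17 probe sets, 6 higher and 7 lower, beside 20.2% and 22.2% of all probe sets. Itgav and Bmp1 count as higher although the brightest probe set of each was not called (log2 change −0.08 and 0.12, limma adjusted p = 0.625 and 0.554). Nrros, which holds latent TGF-beta 1 on macrophages and microglia, had signals of 333.3, 280.8, 310.7, 297.1 and 289.7 in aTX, 81.4, 61.1, 58.6, 68.0 and 53.2 in sTX, and 51.1, 34.6, 67.0, 53.0 and 52.8 in ctr. It was 5.97-fold higher in aTX than in ctr (limma adjusted p = 7.58e-12) and 4.73-fold higher than in sTX (1.37e-10), with no overlap. Fibrillin-1 (Fbn1), the microfibril to which latent complexes bind, was 2.07-fold higher in aTX (adjusted p = 4.26e-06) and 3.62-fold higher in sTX (3.04e-08) than in ctr on its dimmer probe set. On the brighter it was 2.30-fold higher in aTX (adjusted p = 1.4e-05) and 3.21-fold higher in sTX (1.81e-06). Ltbp4, a further latent TGF-beta binding protein, differed in direction by group: it was 1.49-fold lower in aTX than in ctr (adjusted p = 0.00116) and 1.65-fold higher in sTX than in ctr (0.00051; 0.32 blocked for wash run), and 2.46-fold lower in aTX than in sTX (1.23e-07). Itgb5, a subunit of an integrin that can free TGF-beta, was 2.40-fold lower in aTX than in ctr on its middle probe set (adjusted p = 6.01e-09). Its brightest probe set was 2.07-fold lower (adjusted p = 1.97e-08) and its dimmest 4.24-fold lower (0.0145).

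**Figure D4:**
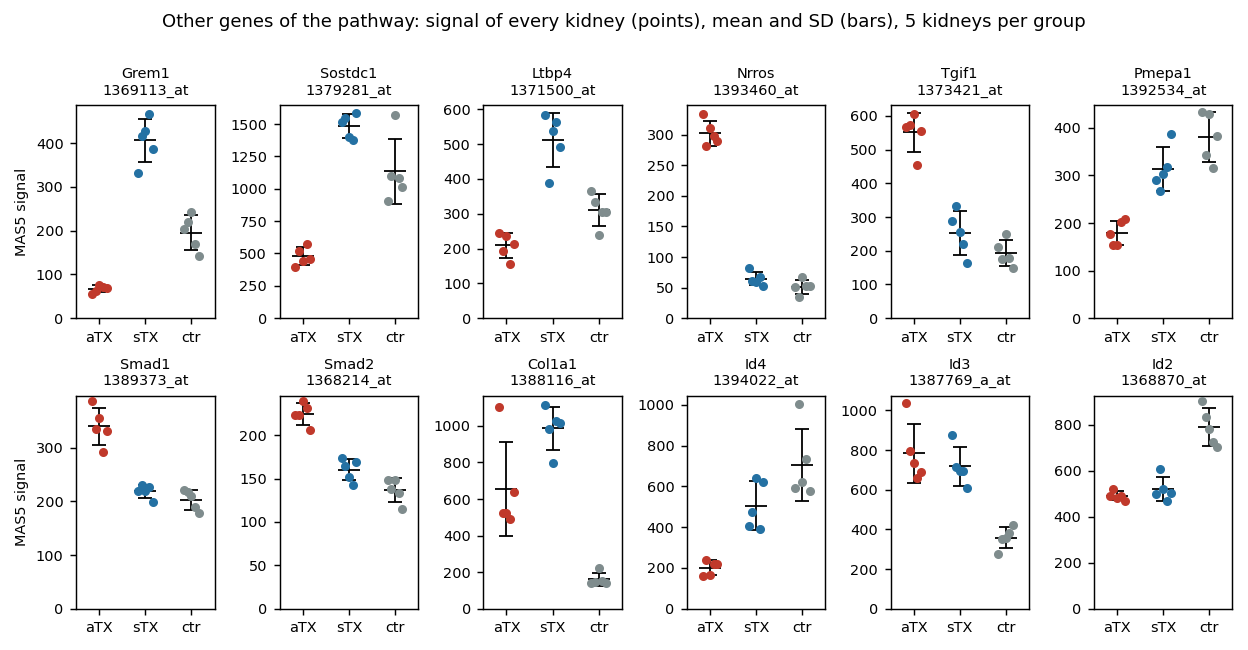
MAS5 signal (vertical axes, linear from 0) of 12 other pathway genes in every kidney, with aTX left, sTX in the middle and ctr right; points are kidneys and bars are the mean and SD of 5 kidneys. Grem1 and Sostdc1 are lowest in aTX, at means of 67.2 and 477.9, and highest in sTX, at 406.4 and 1485, while Nrros and Tgif1 are highest in aTX. For Sostdc1, ctr 3 lies within the sTX range.

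Of 15 genes of extracellular inhibitors 4 were higher and 6 lower in aTX than in ctr, and 8 were higher and 1 lower in sTX than in ctr. Between the graft groups 8 of 15 were lower in aTX than in sTX and 7 were not called. Their 21 probe sets gave 4 higher and 7 lower in aTX against ctr (20.2% and 22.2% of all). They gave 11 and 1 in sTX against ctr (11.4% and 6.32% of all), and 11 lower in aTX against sTX (22.1% of all). Gremlin (Grem1), which binds BMP ligands, had signals of 55.6, 62.6, 76.8, 71.2 and 69.7 in aTX, 332.3, 417.0, 428.7, 466.4 and 387.7 in sTX, and 204.1, 218.9, 242.1, 169.8 and 143.2 in ctr. The groups did not overlap, with sTX above and aTX below ctr: 2.88-fold lower in aTX than in ctr (limma adjusted p = 4.2e-09), 2.10-fold higher in sTX than in ctr (5.84e-06) and 6.05-fold lower in aTX than in sTX (5.49e-12). Sostdc1, an inhibitor of BMP signalling found in distal tubules, was 2.35-fold lower in aTX than in ctr (adjusted p = 3.16e-08) and 3.13-fold lower than in sTX (1.08e-09). Its sTX against ctr change of 0.41 (0.0193) was not called without ctr 1 (0.34, 0.0618) or without sTX 4 and sTX 5 (0.42, 0.0589). It was also not called after median centring (0.22, 0.249) or blocked for wash run (0.67, 0.0803), and ctr 3 lay within the sTX range. Decorin (Dcn), a matrix proteoglycan that binds TGF-beta, and follistatin-like 1 (Fstl1) were higher than in ctr in both graft groups, Dcn by 1.78-fold in aTX and 2.06-fold in sTX (adjusted p = 5.92e-05 and 2.83e-05) and Fstl1 by 1.51-fold in aTX and 2.31-fold in sTX (0.000845 and 2.02e-06).

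Intracellular regulators were split, with 4 of 13 genes higher and 6 lower in aTX than in ctr. As probe sets, 6 of 21 were higher and 6 lower, beside 20.2% and 22.2% of all. Tgif1, a corepressor that binds the activated Smads, averaged 551.1 ± 57.6 in aTX, 252.5 ± 65.0 in sTX and 192.6 ± 38.6 in ctr, 2.89-fold higher in aTX than in ctr (limma adjusted p = 7.63e-08). Fkbp1a, which holds type I receptors inactive, was 2.32-fold higher in aTX (adjusted p = 8.58e-11) and 1.52-fold higher in sTX (1.43e-05) than in ctr. Pmepa1, a feedback inhibitor that TGF-beta induces, was 2.13-fold lower in aTX than in ctr (1.06e-07), at 179.2 ± 25.9 in aTX, 313.0 ± 45.8 in sTX and 380.6 ± 52.2 in ctr. Tob1, an antiproliferative protein that binds BMP Smads, was 2.02-fold lower in aTX than in ctr (5.93e-09).

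Of 17 measured genes listed as TGF-beta targets, 14 were higher in aTX than in ctr and 11 in sTX than in ctr. Ccn2 was lower in both and Junb lower in sTX. Their probe sets were higher for 19 of 27 in aTX and 16 of 27 in sTX, beside 20.2% and 11.4% of all. Smad7 and Pmepa1, which TGF-beta also induces, are not in this list. Pmepa1 and all 3 Smad7 probe sets were lower in aTX than in ctr, and 2 of the 3 Smad7 probe sets in sTX. Between the graft groups 4 of the 17 listed genes were higher and 6 lower in aTX. As probe sets, 5 of the 27 were higher and 9 lower there, beside 13.9% and 22.1% of all. Col1a1, a chain of type I collagen, had signals of 1102.9, 522.4, 522.6, 493.3 and 636.2 in aTX, 1115.3, 982.8, 797.1, 1028.0 and 1016.5 in sTX, and 139.2, 144.4, 221.4, 153.8 and 143.5 in ctr. All grafts lay above all ctr kidneys, 3.95-fold in aTX (limma adjusted p = 9.82e-09) and 6.22-fold in sTX (3.7e-09), and aTX 1 lay within the range of sTX. The lower collagen signal in aTX than in sTX, a log2 change of −0.65 for Col1a1, −0.83 for Col1a2 and −0.62 for Col3a1 (adjusted p = 0.0055, 0.000673 and 0.00113), was −0.23, −0.42 and −0.45 within 1 wash run (0.424, 0.161 and 0.0788). Cdkn1a, the cell cycle inhibitor p21, averaged 103.7 ± 16.7 in aTX, 20.1 ± 8.13 in sTX and 25.6 ± 15 in ctr, 4.57-fold higher in aTX than in ctr (9.55e-06).

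Several of these targets are also markers of fibroblasts, pericytes and smooth muscle, of which 7 of 10 genes were higher and 2 lower in aTX than in ctr, and 9 of 10 higher in sTX than in ctr. Their summed signal was 4803 to 7107 in aTX, 6928 to 8253 in sTX and 2498 to 2958 in ctr. The lists share Col1a1, Col3a1, Acta2 and Tagln, and the part of these cells in the target result was not tested.

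Of 9 BMP target genes 1 was higher and 4 lower in aTX than in ctr, and the Id genes did not move together. Among their 15 probe sets 1 was higher and 8 were lower, beside 20.2% and 22.2% of all. Id4 averaged 201.4 ± 35.3 in aTX, 506.2 ± 119 in sTX and 705.6 ± 177 in ctr, 3.47-fold lower in aTX than in ctr (limma adjusted p = 1.45e-08) and 2.49-fold lower than in sTX (1.83e-06). Id2 was lower in both graft groups, at 490.4 ± 19.5 in aTX, 520.0 ± 52.8 in sTX and 788.2 ± 81.8 in ctr, with log2 changes of −0.68 in aTX (3.45e-07) and −0.60 in sTX (1.46e-05). Id3 was the higher gene, at 783.2 ± 150 in aTX, 717.2 ± 97.6 in sTX and 357.7 ± 52.1 in ctr, 2.18-fold higher in aTX (1.76e-07) and 2.01-fold higher in sTX (7.08e-06) than in ctr. Id1 was 1.34-fold lower in aTX than in ctr (0.00448). The Id proteins bind and block basic helix-loop-helix transcription factors.

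The remaining ligands of the family were mostly dim, and 3 of 16 measured genes were higher and 5 lower in aTX than in ctr. Across their 23 probe sets, 3 were higher and 5 lower, beside 20.2% and 22.2% of all. Gdf15, a stress-induced ligand, averaged 103.7 ± 21.9 in aTX, 81.4 ± 17.9 in sTX and 241.7 ± 82.6 in ctr, 2.28-fold lower in aTX (limma adjusted p = 4.81e-05) and 2.89-fold lower in sTX (1.6e-05) than in ctr. The brightest Bmp6 probe set was 1.62-fold lower in aTX than in sTX (0.000343, and 0.0223 within 1 wash run). It was 1.42-fold higher in sTX than in ctr (0.0127, and 0.586 blocked for wash run), and was not called in aTX against ctr (0.298). The next brightest was also lower in aTX than in sTX (log2 change −0.51, 0.0105), and the others were not called. Inhba, the subunit of activin A, is outside the naming rule because it is dim, and was chosen after its values were seen: its brighter probe set had 23.0 to 31.6 in aTX, 22.3 to 32.4 in sTX and 0.3 to 5.8 in ctr (adjusted p = 1.72e-06 and 2.09e-05 for aTX and sTX against ctr). The dimmer had 12.1 to 21.6 in aTX, 6.2 to 28.4 in sTX and 10.9 to 15.1 in ctr and was not called.

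The genes whose log2 signals followed the brightest probe set of each member most closely over the 15 arrays were searched among 7363 brighter probe sets, and Pearson's r is given as a description, since the 15 arrays share their 3 groups. Tgfb1 was closest to Cybc1, which the phagocyte oxidase needs for assembly (r = 0.987), and to Fkbp1a (0.987). This was a brighter probe set of Fkbp1a than the one described above. For Bmp7 these were C1qtnf3 (0.991) and Sephs1 (0.987), for Bmp4 the amino acid transporter Slc6a18 (0.989) and the phosphatase inhibitor Ppp1r1a (0.987), and for Ltbp1 the growth factor Gas6 (0.984) and the thick limb transporter Slc12a1 (0.981). Smad7 was closest to the splicing factor Srsf5 (0.976) and the phosphatase Ppm1b (0.974). Tgfbr1 was closest to Rdx (0.947), while Tgfb2, Tgfb3 and Tgfbr3, at lower signals, reached 0.879, 0.856 and 0.891 at most.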

How the data were processed

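The authors hybridized total RNA of each kidney to 1 Affymetrix Rat Genome 230 2.0 array and deposited MAS5 signal intensities per probe set. Their methods name scaling to another mean, whereas the deposited intensities have a trimmed mean of 100 on every array (2% left out at each end). Detection calls were not used here. The number of arrays limits the precision.

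The table holds 31099 probe sets. The 57 control probe sets were left out and 31042 tested. Of these 20826 carry 1 gene symbol, 436 several and 9780 none. Signals of 0 (54 in all, 0 among the members) were set to 0.05 before log2. All 15 arrays entered 1 fit in limma 3.58.1 under R 4.3.3 (lmFit, contrasts.fit, eBayes with an intensity trend), two-sided, with Benjamini-Hochberg adjustment over all probe sets, tested on simulated data. Python 3.11.15 made the tables. Hybridization times in the deposited instrument records gave the wash runs. Other pathway genes were named, up to 4 per role, by the largest called log2 change among those with a mean of at least 50 in 1 group. Likeness was searched among probe sets with a mean of at least 100. The members and lists were chosen with earlier results of these data known. Alternatives were other scalings, an offset, a filter, no intensity trend, the methods' t-test, blocks, 1 wash run and leaving out arrays.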

Additional observations from a re-analysis of the deposited data

Results flagged for a closer look

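In 42 sets of 5 signals (14 probe sets in 3 groups), 2 kidneys stood apart from the other 4 of their group by Dixon's criterion, which chance meets in about 1 of 20 sets. Both were on the dimmer Tgfb2 probe set. The kidney aTX 2 had a signal of 6.8, against 18.7 to 21 in the other aTX kidneys, and sTX 5 had 20.1, against 31.1 to 35.5 in the other sTX kidneys. Their gaps were 0.84 and 0.71 of the range of their group.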

How the results depend on the processing

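No result turned its direction past the threshold. The same-numbered kidneys of different groups did not vary together (15 pairs, r from −0.019 to 0.027, 0 above 0.1; 2 of 15 arrays correlated best with their own number), so the numbers were not taken to pair kidneys, and with the replicate number as a block the calls of all 42 member results were the same (8 lower and 1 higher in aTX against ctr, 9 and 1 in aTX against sTX, 3 and 2 in sTX against ctr). Among the members lower in aTX than in ctr (8), a mean signal of at least 50 left 5 of 6 and the methods' t-test at an unadjusted p below 0.001 gave 5. Of the 9 lower in aTX than in sTX these gave 5 and 3, a block for wash run 5 and 1 wash run alone 5. In sTX against ctr the 2 higher became 1 under median centring, quantile scaling, the mean filter, the t-test and without sTX 4 and sTX 5, and 0 blocked for wash run in limma (1 at an unadjusted p below 0.05), while the 3 lower became 5 under median centring and 1 with the block. For the other pathway genes the t-test gave 23 lower in aTX against ctr, 22 lower in aTX against sTX, and 27 higher and 6 lower in sTX against ctr. In sTX against ctr, median centring gave 25 lower and a block for wash run 21 higher and 5 lower, and in aTX against sTX the block gave 33 lower and 1 wash run 32. Leaving out 1 kidney at a time gave, among the members, 1 to 1 higher and 7 to 9 lower in aTX against ctr, 1 to 1 and 7 to 10 in aTX against sTX, and 1 to 2 and 3 to 3 in sTX against ctr, and among the other pathway genes 43 to 45 and 38 to 45, 14 to 18 and 50 to 59, and 35 to 46 and 10 to 14 in the same order. The fold change of a called member moved by at most 1.237 times. Shares of all probe sets were counted only for the main fit, the methods' t-test, the wash run block and 1 wash run alone. The causes of these differences were not tested. The filter leaves fewer probe sets and 1 wash run fewer arrays, and the part of this was not tested either. Signals near the dim end limit Tgfb2, Tgfb3, Tgfbr3 and the dimmest Smad7 probe set.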
